A study of Drosophila melanogaster with 2 samples.

Results

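The genes for the proteins of the small cytoplasmic ribosomal subunit were described in a ChIP-seq map of NC2beta binding in Drosophila melanogaster embryos. They were chosen by symbol: every protein-coding gene called RpS with a number and optional letters, RpSA, or sta. The rule gave 38 of the 13945 protein-coding genes on the 6 main chromosome arms. The comparison was with 48 genes of the large subunit, taken as RpL or RpLP followed by a number and optional letters, and with all protein-coding genes, which include both sets. Symbols with a hyphen fall outside that pattern, so RpL37-1, which had an optimal peak, is not among the 48.

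The embryos were whole, 0 to 24 h old, of both sexes pooled, and from a transgenic line that stably expresses NC2beta with GFP (eGFP in the sample descriptions) fused at its C-terminal end. Chromatin was sheared by sonication to 200 to 800 bp and precipitated with an antibody against GFP, as the sample descriptions state; the antibody field of the labels names NC2beta itself. The samples were 2 biological replicates, numbered 1 and 3, and no control sample was analysed here. They form 1 group, which allows no test between conditions, so values are given per replicate and as mean ± SD (n = 2). The protein mapped is the tagged copy carried by the line, and a whole embryo averages over all stages and cell types of the collection. Fewer cells with binding and less binding per cell cannot be told apart. The number of reads behind the lists is unknown.

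The small subunit reads the messenger RNA. It scans for the start codon, pairs codons with tRNAs in its decoding centre, and is built from the 18S ribosomal RNA and a fixed set of proteins that are needed in equal numbers. In Drosophila, many genes for these proteins start transcription at the TCT element, a stretch of C and T bases that takes the place of the initiator found at many other promoters. Loss of 1 copy of many such genes gives the Minute phenotype of slow growth and thin bristles. NC2 is a heterodimer (NC2alpha with NC2beta, also called DRAP1 and Dr1) that binds the TATA-binding protein on DNA and is known in Drosophila to act differently on promoters with different core elements.

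The sequences below run from position −50 to 15, with position 1 at an annotated transcription start site (TSS), in the Release 6 genome (dm6), read 5′ to 3′ on the gene's strand. Capitals mark the TCT element, searched for as CTTT with a C or T before it and a pair of C or T after it, the C of CTTT lying between −10 and 10. The first set is shown because it holds 4 of the 5 highest peaks, a high peak with no TCT element (RpS12), and a TCT promoter with no peak in the authors' optimal set (RpS3). The TSS shown for RpS27 is the one with the element, 42 bp downstream of the TSS nearest to the peak's summit.
RpS27 (chr3R:25247458-25247522, minus strand): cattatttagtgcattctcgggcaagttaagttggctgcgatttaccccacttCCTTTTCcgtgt
RpS25 (chr3R:11216273-11216337, minus strand): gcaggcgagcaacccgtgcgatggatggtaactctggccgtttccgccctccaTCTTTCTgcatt
RpS3A (chr4:67193-67257, minus strand): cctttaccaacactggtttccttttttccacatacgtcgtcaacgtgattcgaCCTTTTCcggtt
RpS4 (chr3L:13041751-13041815, plus strand): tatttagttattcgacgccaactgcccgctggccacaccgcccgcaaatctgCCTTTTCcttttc
RpS12 (chr3L:13023302-13023366, plus strand): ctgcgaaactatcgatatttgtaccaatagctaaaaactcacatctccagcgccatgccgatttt
RpS3 (chr3R:23358762-23358826, plus strand): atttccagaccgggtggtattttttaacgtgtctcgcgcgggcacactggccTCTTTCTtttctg

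The second set holds 5 of the 6 duplicated genes, with the copy of the higher peak before the other. They are shown because the copies encode like proteins but differ in peak height. RpS10b is shown at the TSS with the element, 9 bp downstream of the TSS nearest to its summit.
RpS10b (chrX:19597990-19598054, plus strand): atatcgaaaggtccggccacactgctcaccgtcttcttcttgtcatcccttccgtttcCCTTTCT
RpS10a (chr3R:27652710-27652774, plus strand): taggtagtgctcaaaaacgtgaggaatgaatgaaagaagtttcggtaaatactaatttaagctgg
RpS28b (chrX:9554573-9554637, plus strand): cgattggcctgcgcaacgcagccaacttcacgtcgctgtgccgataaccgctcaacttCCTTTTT
RpS28a (chr3R:30022634-30022698, minus strand): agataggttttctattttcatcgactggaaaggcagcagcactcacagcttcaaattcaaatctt
RpS19a (chrX:16637844-16637908, plus strand): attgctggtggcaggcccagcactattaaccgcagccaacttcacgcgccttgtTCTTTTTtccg
RpS19b (chr3R:23933516-23933580, minus strand): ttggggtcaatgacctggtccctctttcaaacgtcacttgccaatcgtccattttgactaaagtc
RpS5a (chrX:17148250-17148314, minus strand): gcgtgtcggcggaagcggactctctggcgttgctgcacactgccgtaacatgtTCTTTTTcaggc
RpS5b (chr3R:14901549-14901613, minus strand): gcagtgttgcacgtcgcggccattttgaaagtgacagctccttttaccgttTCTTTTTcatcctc
RpS14a (chrX:7933692-7933756, plus strand): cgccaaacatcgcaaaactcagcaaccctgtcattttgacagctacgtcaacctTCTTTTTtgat
RpS14b (chrX:7934848-7934912, plus strand): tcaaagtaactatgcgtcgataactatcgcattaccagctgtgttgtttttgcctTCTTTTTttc

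RpS5a and RpS5b both hold the element, as do RpS14a and RpS14b. Of the other 3 pairs shown, only RpS10b, RpS28b and RpS19a do, each of them the copy on X and the one with the higher peak.

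Most small subunit genes carried an optimal NC2beta peak at a promoter, far more often than genes at large. An optimal peak is one of the 3897 regions in the set that the authors thresholded on reproducibility between replicates (the irreproducible discovery rate). These were the 3897 highest regions of the pooled list, so the set amounts to a limit on pooled height. Not every optimal peak had a region in each replicate: 3888 had one in replicate 1 and 3893 in replicate 3. A peak was assigned to a gene when its summit lay within 250 bp of any annotated TSS. Of the 38 small subunit genes, 30 (78.9%) had such a peak, against 46 of 48 large subunit genes (95.8%) and 17.6% of all protein-coding genes. When each replicate's own 3897 highest regions were used instead, the count was 34 of 38 in replicate 1, against 46 large subunit genes and 17.9% of all genes. In replicate 3 it was 30 of 38, against 44 large subunit genes and 16.4% of all genes. The 4 genes present in replicate 1 alone included RpS3, RpS24 and RpS28a. The other 30 were in the highest regions of both replicates. At any height, all 38 had a region of the pooled list near a TSS, against 47 of 48 large subunit genes and 48.5% of all genes; that list holds 30000 regions and includes background.

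By place in the subunit, the head accounts for 18 of the genes. Of these, 13 had an optimal peak, against 17 of the 20 genes for the body and platform. Both shares lay far above the 17.6% of all protein-coding genes and below the 95.8% of large subunit genes. The difference between the places was not tested. Of the 5 head genes without an optimal peak, RpS5b, RpS10a, RpS19b and RpS28a are copies of a duplicated gene whose other copy had a peak. RpS3 is the only one of the 5 without a copy. The 13 head genes with a peak had a median height of 355, and the 17 others one of 279.7, with wide overlap (216 to 544 in the head, 105 to 923 elsewhere).

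Peak heights are the authors' signal values, and the sources used here name no unit for them. Over the 3897 optimal peaks they ran from 74.1 to 1496 with a median of 112. To set the replicates side by side, each replicate's height was divided by that replicate's median over the optimal peaks, which was 70.6 in replicate 1 and 47.1 in replicate 3; this quotient is called the relative height.

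The highest small subunit peak lay at RpS27 (FBgn0039300), which encodes a zinc-binding protein of the platform. It covered chr3R:25247289-25247726 with a pooled height of 923, the 16th highest of all regions. RpS27 had a height of 544 in replicate 1 and 379 in replicate 3, which are relative heights of 7.70 and 8.04 (7.87 ± 0.238, SD, n = 2). Its lower value stood above the higher value of the next gene, so RpS27 was highest in both replicates. A TSS of Nup37 also lies within 250 bp of this summit. The next gene was RpS25 (FBgn0086472, chr3R:11216147-11216573), a head protein known in yeast and human cells for its part in translation from viral internal ribosome entry sites. Its height was 347 in replicate 1 and 198 in replicate 3, or 4.56 ± 0.504 in relative height (SD, n = 2).

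RpS16, whose tail reaches the tRNA in the P site, followed with heights of 317 and 199 in replicates 1 and 3 (relative height 4.35 ± 0.193, SD, n = 2). RpS3A, a platform protein encoded on chromosome 4, had 269 in replicate 1 and 177 in replicate 3 (3.79 ± 0.0394). The RpS3A peak lay at chr4:67092-67437 and was the only one of the set on that chromosome, where it is also the only small subunit gene. RpS4, a body protein, reached 307 in replicate 1 and 130 in replicate 3. Its relative heights of 4.35 and 2.76 (3.56 ± 1.12) differed more than those of any other of the 10 highest. RpS10b, near the mRNA entry channel, had 248 and 177 in replicates 1 and 3, which gave 3.63 ± 0.166.

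RpS12, a head protein that in Drosophila is needed for cell competition between cells that differ in ribosomal protein gene dose, had heights of 271 and 142 in replicates 1 and 3 (3.43 ± 0.578). RpS27A, made as a fusion of ubiquitin with a head protein, had 251 in replicate 1 and 122 in replicate 3 (3.08 ± 0.686). RpS29, a small zinc-binding head protein, had 220.0 in replicate 1 and 149 in replicate 3, with nearly equal relative heights of 3.12 and 3.16. RpS20, also of the head, completed the 10 highest with 222 in replicate 1 and 137 in replicate 3 (3.02 ± 0.179). From RpS25 down to RpS20, neighbours in this order changed places between the replicates or differed by less than the SD of one of them, except that RpS16 stood above RpS3A in both replicates by more than either SD.

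**Figure D1:**
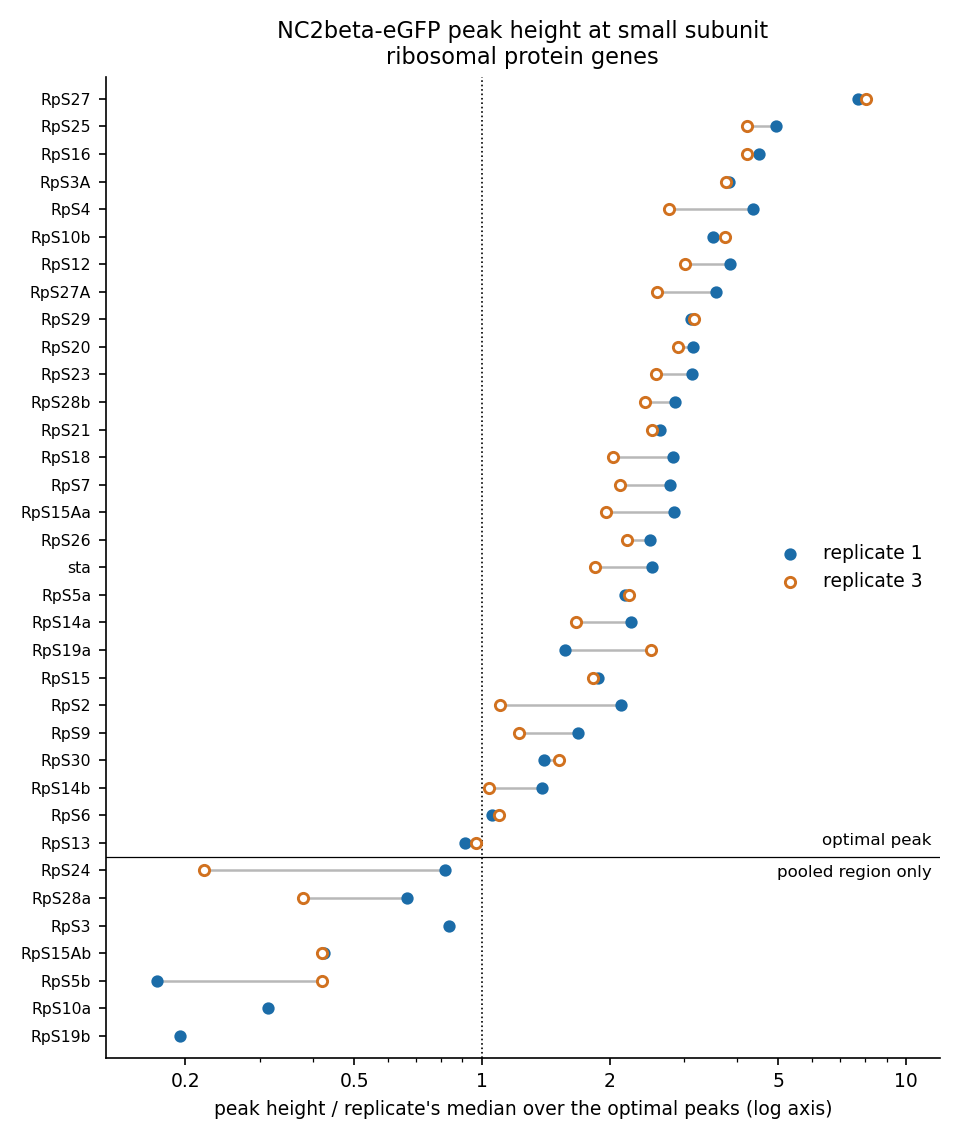
Peak height at 35 of the 38 genes divided by the replicate's median over the optimal peaks (horizontal log axis), with filled points for replicate 1 and open points for replicate 3. Genes run from the highest pooled height at the top, and the line separates the 28 with an optimal peak from the 7 with only a lower pooled region. All but RpS13 of the upper 28 lie right of 1 in both replicates, and all points of the lower 7 lie left of it.

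The remaining 20 genes with an optimal peak had pooled heights from 105 to 333. RpS23, known for its part in decoding accuracy, RpS28b, RpS21, RpS18, RpS7 and RpS15Aa lay between 289.5 and 333. RpS26, sta (the fly gene for the protein SA, once named as a laminin receptor), RpS5a, RpS14a, RpS19a, RpS15 and RpS2 lay between 200.2 and 279.7. The lowest were RpS9 (176), RpS30 (170.04), RpS14b (149), RpS6 (123) and RpS13 (105). RpS30 is made as a fusion with a ubiquitin-like protein, and RpS6 is the substrate of the S6 kinase downstream of TOR. RpS6 had relative heights of 1.05 in replicate 1 and 1.10 in replicate 3, and RpS13 had 0.911 and 0.967, at the level of an ordinary optimal peak.

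Set beside the rest of the map, the small subunit peaks were tall. Of the 30 peaks, 21 (70%) were among the highest 10% of optimal peaks (a height of 258 or more), against 33 of 46 large subunit genes and 11.6% of the 2450 genes with an optimal peak. All but RpS13 (29 of 30) stood above the median optimal peak, against 44 of 46 large subunit genes and 51.3% of all. The median relative height in replicate 1 was 2.80 for the small subunit genes, 3.16 for the large subunit genes and 1.01 for all genes with a peak. In replicate 3 the medians were 2.32, 2.88 and 0.993 in the same order. The lower median than that of the large subunit thus had the same direction in both replicates, with quartiles of the mean relative height that overlap widely (1.98 to 3.12 for the small subunit, 1.99 to 4.63 for the large). No test was made of these differences, since genes are not replicates of a condition. The SD of the small subunit median between replicates was 0.335, and the distance to all genes was several times that.

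**Figure D2:**
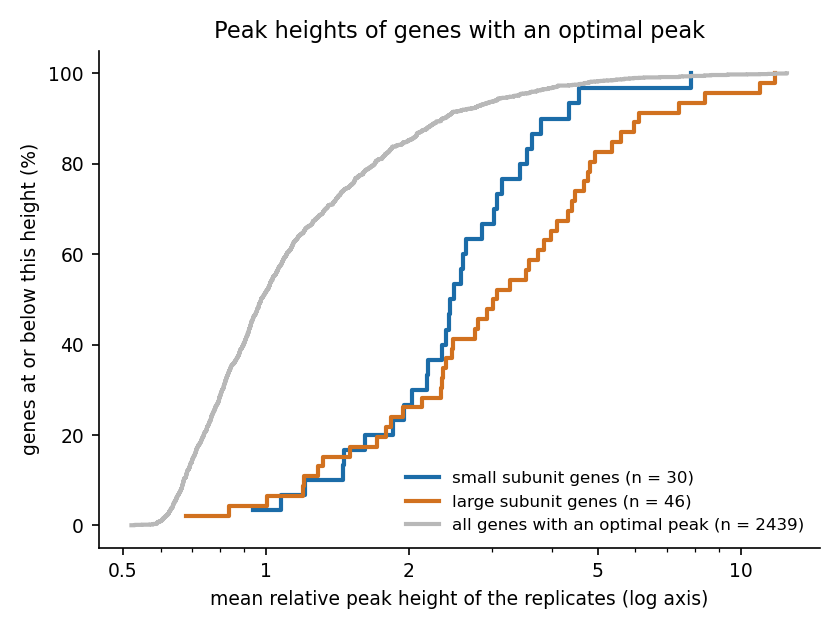
Share of genes (vertical axis, %) at or below each mean relative peak height (horizontal log axis) for small subunit genes (n = 30), large subunit genes (n = 46) and all genes with an optimal peak (n = 2439 with a region in both replicates). The curve of the small subunit, with a median of 2.46, lies right of that of all genes (0.977), and in its upper part it lies left of that of the large subunit (3.04).

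The order of these genes by height differed between the replicates, with RpS27 highest in both. Relative height was greater in replicate 1 for 21 of the 30 genes, against 43 of 46 large subunit genes and 53.9% of all genes with a region in both. The median log2 of replicate 3 over replicate 1 was −0.20 for the small subunit genes, −0.26 for the large subunit genes and −0.04 for all. RpS2, which encodes a protein at the mRNA entry side and is known in flies as string of pearls for its role in oogenesis, differed most toward replicate 1. Its heights were 150.1 in replicate 1 and 52.1 in replicate 3, or 2.13 and 1.11 in relative height. RpS19a differed most in the other direction, with 111 in replicate 1 and 118 in replicate 3, or 1.57 and 2.50. Both genes nevertheless stayed above the limit of each replicate's own highest 3897 regions (46.7 in replicate 1 and 30.6 in replicate 3). The reason for the shift between replicates was not tested.

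**Figure D3:**
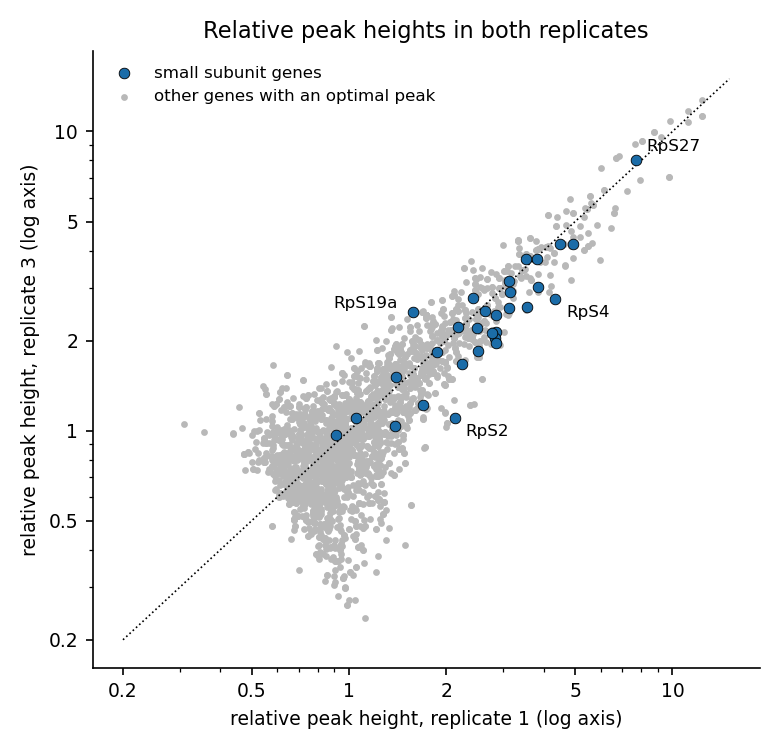
Relative peak height in replicate 1 (horizontal log axis) against replicate 3 (vertical log axis) for the genes with an optimal peak, small subunit genes in blue and others in grey, with the line of equal values dotted. Of the 30 small subunit genes, 21 lie below the line; RpS2 is farthest below it and RpS19a farthest above it.

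No optimal peak was found at 8 of the 38 genes. They fall into a group just below the limit and a group nearer to the lowest heights of the lists. The optimal set ended at a height of 74.1, and the gene nearest to that limit on the inside was RpS13 (104.9). Among the genes outside it, RpS24 had a pooled height of 65.1 and RpS28a one of 64.4. RpS24, a body protein, had 57.7 in replicate 1 and 10.4 in replicate 3, where the lowest value in the list is 10.04. RpS28a had 47.0 in replicate 1 and 17.8 in replicate 3.

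RpS3 (FBgn0002622), a head protein at the mRNA entry that in Drosophila is also known as a DNA repair enzyme and as a strong Minute gene, had the highest value of the 8 in replicate 1. Its height there was 58.9, at rank 2605, while replicate 3 had no region within 250 bp of the pooled summit at chr3R:23358879. The nearest optimal peak lay 13637 bp away. Its promoter, shown above, holds a TCT element. The pooled regions of RpS24, RpS28a and RpS3 had heights of 62.2 to 65.1 and a −log10 q of 4.08. This is the highest value in the list, but RpS27 and RpS13 had it too, so it does not rank these regions.

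RpS15Ab, RpS5b, RpS10a and RpS19b were lower. RpS15Ab had a pooled height of 42.3 (29.98 in replicate 1 and 19.8 in replicate 3). RpS5b had 30.9, and the regions near that summit in the replicates (12.1 in replicate 1 and 19.8 in replicate 3) had their own summits 375 and 259 bp downstream of the TSS, outside the distance used. RpS10a had 25.6, with 22.1 in replicate 1 and no region in replicate 3. RpS19b had 21.1, with 13.7 in replicate 1 and none in replicate 3. For comparison, the median height over each whole list was 18.6 in replicate 1 and 14.7 in replicate 3, and the pooled list ended at 18.0. The −log10 q of these 4 ran from 1.82 at RpS15Ab to 0.327 at RpS19b.

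The copies of duplicated genes differed in peak height. A copy with no region in a replicate was counted as the lower one, as at RpS10a and RpS19b in replicate 3. In each of the 6 pairs one copy had the higher peak in both replicates, and that copy lay on X in all 6. RpS14b is on X as well, and the lower copy of the other 5 pairs is on an autosome. In Drosophila, RpS5b, RpS10a and RpS19b are known as copies expressed mainly in the germ line or gonads, while their partners are expressed broadly.

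RpS10b had relative heights of 3.51 in replicate 1 and 3.75 in replicate 3, against 0.312 at RpS10a in replicate 1 and no region there in replicate 3. The pooled heights were 420.2 at RpS10b and 25.6 at RpS10a, a ratio of 16.4. RpS19a, a head protein whose human counterpart is mutated in Diamond-Blackfan anaemia, had a pooled height of 223 against 21.1 at RpS19b, a ratio of 10.6. RpS5a, at the mRNA exit, had 2.17 and 2.22 in replicates 1 and 3, against 0.172 and 0.421 at RpS5b. This was a ratio of 8.37 in the pooled list, 12.6 in replicate 1 and 5.27 in replicate 3. The replicate values of RpS5b come from regions with summits 375 and 259 bp downstream of its TSS, outside the distance used. Neither replicate had a region within that distance of the RpS5b TSS.

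RpS15Aa had relative heights of 2.84 and 1.96 in replicates 1 and 3, against 0.425 and 0.420 at RpS15Ab, and the pooled ratio was 6.84. The 2 values of RpS15Ab come from regions whose summits lay 221 bp apart, at 82 bp from the TSS in replicate 1 and −139 bp in replicate 3. RpS28b had relative heights of 2.85 and 2.43, against 0.666 and 0.378 at RpS28a, with a pooled ratio of 4.90. RpS14a and RpS14b, platform proteins at the mRNA exit whose TSSs lie 1156 bp apart on X, were the only pair with an optimal peak at both copies. RpS14a had 2.24 and 1.67 in replicates 1 and 3, against 1.38 and 1.04 at RpS14b. Their ratio of 1.58 in the pooled list was nearly the same in replicate 1 (1.62) and in replicate 3 (1.61).

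**Figure D4:**
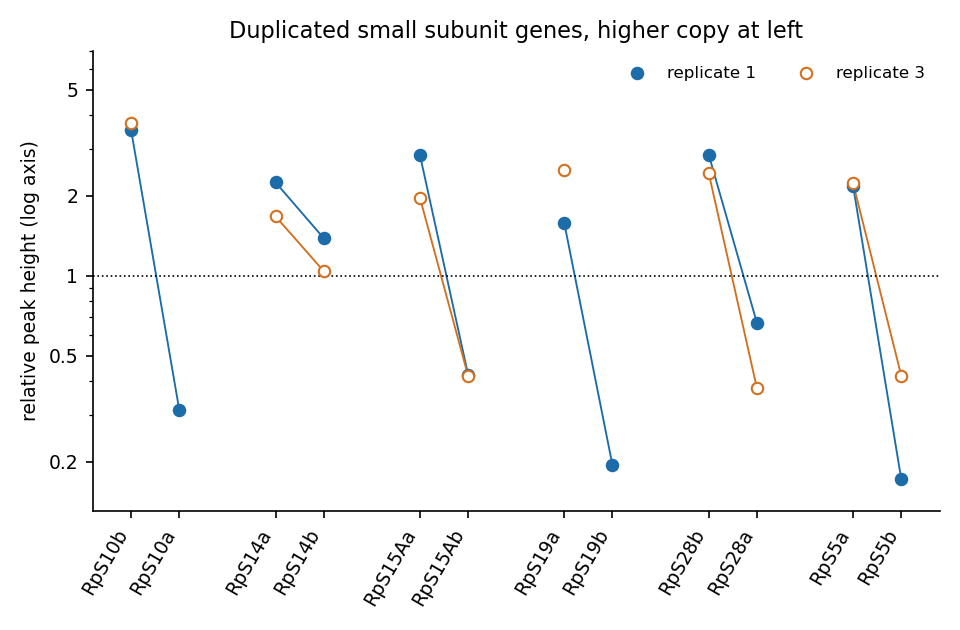
Relative peak height (vertical log axis) of both copies of the 6 duplicated genes, the higher copy at left in each pair, in replicate 1 (filled) and replicate 3 (open), with lines joining the copies within a replicate. RpS10a and RpS19b have no region in replicate 3, so those lines are missing. The points of RpS5b are regions with summits 375 bp (replicate 1) and 259 bp (replicate 3) downstream of its TSS, outside the distance used. Those of RpS15Ab are regions with summits at 82 bp (replicate 1) and −139 bp (replicate 3) from its TSS. In every pair the left copy is higher, and only RpS14b among the right copies lies above 1.

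Copies of one gene can share reads, and how the authors handled such reads is not stated in any source used here. The coding sequences of RpS14a and RpS14b were 97.8% identical, those of RpS15Aa and RpS15Ab 98.2%, and those of the other 4 pairs 70.9% to 80.7%. The promoters of the copies differed more. From position −250 to 50, which holds the pooled summit of every copy except RpS5b (at 242 bp), the identity was 57.3% to 64.7%, and the longest stretch shared by 2 copies was 11 bases, in the RpS14 pair. Whether reads from one copy add to the other was not tested.

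The summits lay close to the start site. In the 30 genes the median summit position was −9.5 bp from the nearest TSS, which is upstream (quartiles −43.5 and 13.5), against −18.5 bp in the large subunit genes and −73.5 bp in all genes with an optimal peak. The summit was within 50 bp of the TSS in 23 of 30 genes, against 32 of 46 large subunit genes and 31.7% of all. It lay upstream in 19 of 30, against 32 of 46 large subunit genes and 81.1% of all. The farthest upstream was that of RpS20 (−114 bp), and the farthest downstream that of RpS6 (66 bp). The replicates placed the summit a median of 14 bp apart at the small subunit genes, 17 bp at the large subunit genes and 27 bp at all genes. The SD between replicates of the median offset was 9.55 bp. The distance from the small to the large subunit median was smaller than that, and the distance to all genes larger. Measured from the most upstream annotated TSS, the small subunit median was 7 bp, on the other side of the start site; 20 of the 38 genes have more than 1 TSS.

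**Figure D5:**
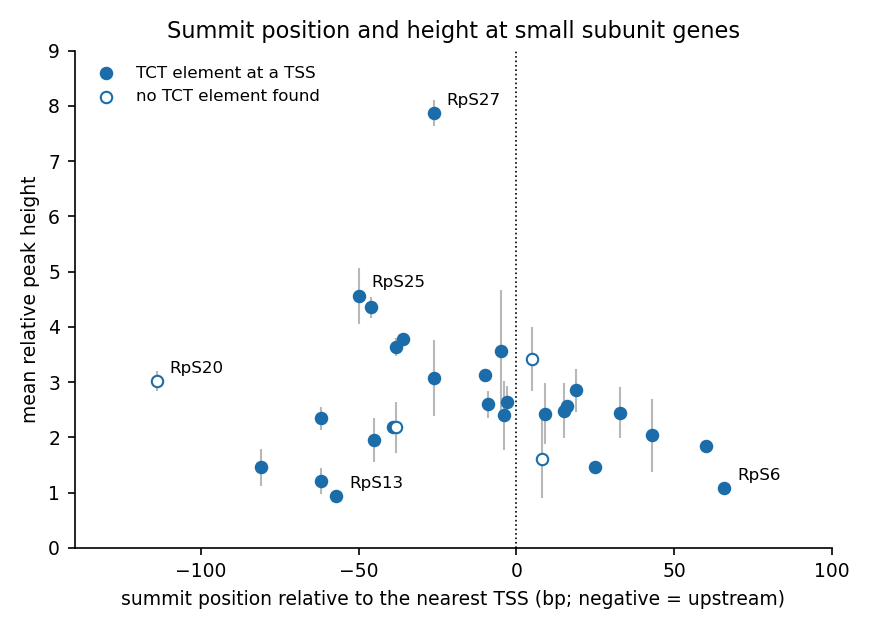
Summit position relative to the nearest TSS (horizontal axis, bp, negative is upstream) against mean relative peak height of the 30 small subunit genes with an optimal peak, with bars for the SD of the 2 replicates. Filled points have a TCT element at any annotated TSS and open points have none. The 10 highest genes lie between −114 and 5 bp, and the genes with summits beyond 40 bp downstream (RpS19a, RpS15 and RpS6) have relative heights of 1.08 to 2.03.

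Of the 8 promoter elements searched for, TCT had the share in small subunit genes that stood highest over its share in all genes. It was found at the TSS nearest to the summit in 20 of 38 genes (52.6%), against 33 of 48 large subunit genes and 1.61% of all genes. Only 48.5% of all genes had a pooled region near a TSS, and the rest were read at their most upstream annotated TSS. With the most upstream TSS of every gene, TCT was found in 16 of 38, against 1.51% of all. At any annotated TSS TCT was found in 29 of 38, against 41 of 48 large subunit genes and 2.32% of all. The C of its CTTT most often lay a few bases downstream of the annotated start, at a median position of 5 in the small subunit genes, the large subunit genes and all genes with a peak alike. When the C had to lie between −3 and 3, the count fell to 5 of 38, against 0.38% of all genes. In the window moved 200 bp downstream it was found in none of the 38 genes, against 1.08% of all. With an optimal peak, 26 of 30 small subunit genes had the element at any TSS, against 40 of 46 large subunit genes and 5.43% of all genes with such a peak. Without one, 3 of 8 small subunit genes had it (RpS3, RpS5b and RpS24).

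Those with a peak but no TCT element were RpS2, RpS12, RpS20 and sta. The median relative height (mean of the replicates) was 2.60 in these 4 genes and 2.46 in the 26 with the element. Counted from the C of the element, the median summit position was −34 bp (upstream) in the small subunit genes, against −45.5 bp in the large subunit genes. Positions −5 to 10 held 73.3% C or T (median) in the 30 genes with a peak, 63.3% in the 8 without, and 53.3% in all protein-coding genes.

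Other elements were sought at the TSS nearest to the summit, or at the most upstream annotated TSS of genes with no pooled region. The TATA box was searched for on the gene's strand as TATAAA, starting between −40 and −20. The initiator was searched for on that strand as TCAGTT, with its only adenine from −10 to 10. Each could have at most 1 mismatch. On both strands from −150 to 50 the search took ATCGAT flanked by A or T (DRE, the site of the factor DREF), GGTCACACT with at most 1 mismatch (Motif 1, the site of M1BP), GTATNTTT (Motif 6), CATCNCTA (Motif 7) and GAGAG (GAGA). Matches that overlap another element were counted for both. A match is a stretch of letters and does not show that a factor is bound.

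The DRE was found at 16 of 38 small subunit genes, against 12 of 48 large subunit genes and 14.1% of all genes. In the window moved 500 bp upstream it was found at 2 of 38, against 3.47% of all genes. Among genes with an optimal peak it was found at 14 of 30, against 12 of 46 large subunit genes and 21.8% of all. It was present at RpS25, RpS10b, RpS12 and RpS29 of the 10 highest, and the median relative height was 2.22 with it and 2.59 without. Motif 1 was found at 10 of 38, against 14 of 48 large subunit genes and 14% of all genes. RpS3 and RpS10a, without an optimal peak, held it. Among genes with an optimal peak it was found at 7 of 30, against 23.7% of all, a share near the background. Motif 6 was found at 6 of 38, against 12 of 48 large subunit genes and 10.2% of all. With the window opened to −250 the Motif 6 count was 10 of 38, against 14.8% of all genes. Among genes with an optimal peak Motif 6 was found at 4 of 30, against 13.3% of all, again near the background.

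TATA was found at RpS13 and RpS19a only, 2 of 38, against 5 of 48 large subunit genes and 23.9% of all genes, and with no mismatch allowed at none, against 7.86% of all. The initiator was found at 3 of 38 (RpS9, RpS15 and RpS15Aa), against 8 of 48 large subunit genes and 27.6% of all, and with no mismatch at none, against 7.14% of all. GAGA was found at 2 of 38 (one of them RpS5a), against 8 of 48 large subunit genes and 23.3% of all, and at 4 with the window opened to −250, against 30.6% of all. Motif 7 was found at 2 of 38 (RpS6 and RpS18), against 4 of 48 large subunit genes and 5.51% of all, a share near the background.

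Many ribosomal protein genes carry small nucleolar RNAs (snoRNAs), which guide the modification of ribosomal RNA, in their introns. An annotated snoRNA gene on the same strand lay inside 13 of the 38 small subunit genes, against 16 of 48 large subunit genes and 0.602% of all genes. RpS5a held 14 and RpS7 held 7. Of the 13 hosts, 12 had an optimal peak, against 30 of all 38 small subunit genes and 17.6% of all protein-coding genes. The share among host genes outside the small subunit was not set beside this count. The 12 had a median relative height of 2.81, against 2.42 in the 18 genes with a peak and no snoRNA gene. Their quartiles overlap (2.19 to 3.46 and 1.88 to 2.80), and a link between hosting and height was not tested.

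Some peaks cannot be assigned to 1 gene. At 6 of the 30 peaks (20%) a TSS of another protein-coding gene also lay within 250 bp of the summit, against 10 of 46 large subunit genes and 47.3% of all genes with an optimal peak. The neighbours were Nup37 at RpS27, CG4820 at RpS25, Ip259 at RpS27A, CG17271 at RpS20, inc at sta and CSN8 at RpS13. The 6 had a median relative height of 3.05, and the 24 others one of 2.44. Among the 8 genes without an optimal peak the same was true of RpS28a (Axn), RpS15Ab (Lsm10) and RpS19b (CG5854). The share that the neighbour has in these heights was not tested.

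By chromosome, all 9 genes on X, all 5 on 2L, all 4 on 3L and the 1 on chromosome 4 had an optimal peak. On 3R 7 of 12 had one, and on 2R 4 of 7. Over all arms together it was 30 of 38, against 17.6% of all protein-coding genes. Shares of all genes on single arms were not set beside these counts, so they do not show a difference between arms. The 5 lower autosomal copies of duplicated genes make up 5 of the 8 genes without an optimal peak.

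Genes that work with the small subunit were read in the same way. Rack1, whose protein sits on the head of the subunit though its gene is not named RpS, had a peak of 389 and relative heights of 3.59 in replicate 1 and 2.92 in replicate 3, within the range of the 10 highest small subunit genes. Of the 16 genes for eIF3, the initiation factor that binds the small subunit, 6 had an optimal peak (37.5%), with eIF3c highest at 233 and a median relative height of 1.02. Of 8 genes listed as ribosome assembly factors, not all of them particular to the small subunit, 5 had an optimal peak (Fib, Nop56, hoip, RIOK1 and RIOK2). Their median relative height was 0.893. Among all protein-coding genes 17.6% had an optimal peak. Of the 26 genes for the small subunit of the mitochondrial ribosome, 7 had a peak (26.9%), with a median of 0.862. The highest of them, at mRpS10, stood above RpS27 with a height of 1002 and relative heights of 8.02 in replicate 1 and 9.31 in replicate 3. These median relative heights lie near the 0.977 of all genes with a peak, whereas that of the cytoplasmic small subunit genes was 2.46. RpS28-like, a gene outside the symbol rule, had no optimal peak.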

How the data were processed

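Anti-GFP ChIP-seq of 2 biological replicates was analysed from the authors' lists of regions in build dm6; the lists in dm3 were not used. Per the file lists deposited with the samples, regions were called in each replicate and in the pooled replicates (30000 regions each) from the alignments and a further file that also underlies the control-normalized signal, and the optimal peaks were derived from those lists. The 3897 optimal peaks and the pooled list's 3897 highest regions were the same. The deposited signal value of each region is called its height; no source used here names its unit, and heights were compared within a list only. The deposited −log10 q value is printed for genes without an optimal peak. Neither aligner nor caller is given in the sources used here. Without read totals, intervals for counting error could not be computed.

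TSSs were the 19253 unique starts of protein-coding genes on arms 2L, 2R, 3L, 3R, X and chromosome 4 in Ensembl release 115, and sequences came from the RefSeq Release 6 genome. Every region lay within its arm. A gene took its highest optimal peak with a summit within 250 bp of a TSS, or else its highest pooled region, and its TSS nearest to that summit. A replicate's height was that of its highest region within 250 bp of that summit, divided by the replicate's median (over 3888 optimal peaks with a region in replicate 1 and 3893 in replicate 3). A gene with no pooled region within 250 bp of a TSS was read for promoter elements at its most upstream annotated TSS. Coding sequences and promoters of copies were aligned end to end with Biopython 1.88. Values are described beside the share of all genes, and no test was run. Values in each replicate are given for the 10 highest peaks, the genes without an optimal peak, all duplicated copies and the gene that differed most between replicates in each direction. The head of the subunit was listed from general knowledge of its structure. The genes and lists were chosen with earlier results of these data known. Alternatives were other distances, TSSs, peak sets, single replicates, scalings, motifs and windows. The code was tested on simulated data with 200 genes. No sequence from arm 2R is shown. A few of the genes are counted in every total but are not reported here by name. Work was done in Python 3.11.15 with numpy 2.4.6 and pandas 2.3.3.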

Additional observations from a re-analysis of the deposited data

How the results depend on the processing

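Of 45 alternatives, 31 left the value within 1.5 times of a count, or within the SD between replicates of a median. The 45 include windows moved 200 bp downstream or 500 bp upstream, which serve as a background. A steady count in a moved window therefore does not speak for the result. The number of small subunit genes with a peak ran from 28 (most upstream TSS only) to 34, and leaving out a replicate gave 30 (without replicate 1) and 34 (without replicate 3). The median relative height ran from 2.32 to 2.80. The same copy of each of the 6 duplicated genes was higher in every alternative run. A copy with no region counted as lower, as at RpS10a and RpS19b in replicate 3. The copies were ordered by the height in the pooled list, which holds both replicates, so these alternatives are not independent of that order. The median summit offset was −9.5 bp and turned to 7 bp from the most upstream TSS. With a single replicate it was −22.5 bp (without replicate 1) to −9 bp (without replicate 3). The TCT element, found at 20 genes (1.61% of all genes), was found at 5 (0.38%) when its C had to lie between −3 and 3, and at 0 (1.08%) with the window moved 200 bp downstream. With no mismatch TATA (7.86% of all genes) and the initiator (7.14%) were found at 0 genes each. In the window moved 500 bp upstream, TATA was found at 10 (17.9%), the initiator at 5 (10.6%), the DRE at 2 (3.47%) and Motif 1 at 1 (3.3%). Motif 6 was found there at 3 (6.12%) and GAGA at 8 (19.7%). Motif 7 was found there at 3 (1.69%), against 2 (5.51%) in its own window, and this counts among the 31. From −250 Motif 6 was found at 10 genes (14.8%) and GAGA at 4 (30.6%). The cause was not tested beyond the alternative's own construction. No paired analysis was possible because the replicates form 1 group. The unknown depth and the control that was not analysed here limit all statements on low regions.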
